A study of Homo sapiens with 7 samples.

Results

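GATA2, TAL1, LYL1, LMO2, HHEX, MEIS1, MYB, MYC, HLF and MECOM encode transcription factors of blood stem and progenitor cells, and they were examined for occupancy by AML1 and its fusion AML1-ETO, and by the co-regulators p300 and N-CoR, in the leukemia line Kasumi-1. The 10 genes were listed by name, by a rule that uses no measured value although earlier results of these data were known, and they are 10 of 20163 protein-coding genes in the annotation used. Kasumi-1 is an established cell line, labelled as a myeloblast line from peripheral blood, that carries the t(8;21) translocation and makes the fusion protein AML1-ETO. All libraries came from cells growing in log phase, with no treatment named in the labels, and the groups differ in the antibody and in how the beads were washed. N-CoR and p300 shared a milder wash, with fewer rounds of RIPA buffer and less lithium chloride in it than for the other antibodies, plus a high salt step. The AML1 antibody recognizes a C-terminal part of Runx1 that the fusion lacks, and the AML1-ETO library was made with an antibody to ETO. N-CoR is a co-repressor that the ETO part of the fusion can recruit, p300 is a co-activator with acetyltransferase activity, and H3K4me3 is a histone modification found at the starts of active genes. For each antibody the replicates were pooled by the authors before peaks were called, so there is 1 list of peak positions per antibody, no spread between replicates and no test between antibodies. The lists hold 19632 peaks for H3K4me3, 18087 for AML1-ETO, 11692 for AML1, 11020 for p300 and 10004 for N-CoR. They carry no read counts, so the height of a peak is unknown from the files. The authors report the reads of each replicate library, and differences in depth between antibodies were not accounted for here.

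TAL1 and LYL1 are related basic helix-loop-helix proteins that bind E-box sequences as partners of E proteins. LMO2 binds no DNA itself and bridges them to GATA factors, among which GATA2 is the one typical of stem and progenitor cells, and Runx1 occupies many of the same enhancers in these cells. HHEX and MEIS1 are homeobox proteins, MEIS1 being a DNA-binding partner of HOX and PBX proteins. MYB and MYC keep progenitors proliferating, and HLF and MECOM are characteristic of the most immature stem cells. Several of the genes are themselves controlled by distant enhancers, and many are activated in leukemia when those enhancers or the genes are rearranged.

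The cell type was first checked at the starts of marker genes. An H3K4me3 summit lay within 1000 bp of an annotated start of all 8 myeloid progenitor markers examined (MPO, ELANE, CD34, KIT, CD33, SPI1, CEBPA and AZU1). It did so at 0 of 3 T cell markers, 0 of 4 markers of other tissues and 1 of 3 erythroid markers (EPOR).

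A summit is the base at which a peak is highest, and summits were counted in each gene body with 5 kb to either side. LYL1 and LMO2 carried the most factor summits, GATA2 and HLF carried none, and all 10 genes had at least 1 H3K4me3 summit. AML1-ETO summits were found at 7 of the 10 genes, against 41.3% of all protein-coding genes by the same rule. AML1 was found at 8 of them (34.9% of all genes), N-CoR at 6 (26.7%), p300 at 7 (45.5%) and H3K4me3 at 10 (68.0%). Gene length differs little in the middle of these groups, with a median of 24.7 kb for the 10 genes and 27.2 kb for all protein-coding genes. It ranges from 4.13 kb for LYL1 to 580 kb for MECOM, and longer genes offer more room for a summit. In total the 10 loci held 25 H3K4me3 summits, 16 of p300, and 17 each of AML1, AML1-ETO and N-CoR.

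**Figure D1:**
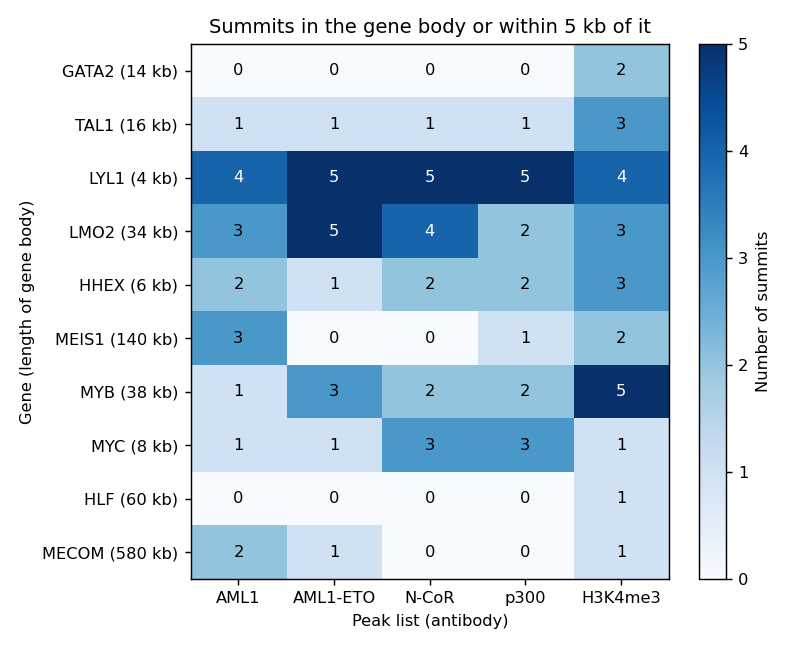
Number of summits of each antibody (columns) in the gene body or within 5 kb of it for the 10 genes (rows, with gene length in kb); darker cells hold more summits. LYL1 has 4 or 5 summits of every list, whereas GATA2 and HLF have 0 of any list but H3K4me3.

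In the wider view, with 50 kb to either side, the counts for the 10 genes changed by 1 at most, while the shares of all genes rose. AML1-ETO was then found at 8 of the 10 genes, against 66.5% of all protein-coding genes. The corresponding values were 9 and 59.8% for AML1, 6 and 48.7% for N-CoR, 8 and 64.4% for p300, and 10 and 80.9% for H3K4me3. The N-CoR genes were the same 6 in both views, namely TAL1, LYL1, LMO2, HHEX, MYB and MYC.

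Windows of 50 bp to either side of a summit were then joined into a site wherever they shared at least 1 bp. In this way AML1, AML1-ETO and both co-regulators formed 32 sites within 5 kb of the 10 genes. All 4 were present together at 7 of these, 21.9%, whereas 7.76% of the 29442 sites in the genome held all 4. The 7 sites belong to TAL1 (1), LYL1 (3), LMO2 (2) and HHEX (1), so 4 of the 10 genes had such a site, against 8.54% of all protein-coding genes. By distance to the nearest annotated start of any gene, 15 of the 32 sites were promoter sites (within 1000 bp) and 17 were distal. An H3K4me3 summit lay within 1000 bp of 8 of the promoter sites and 2 of the distal sites. Sites with all 4 proteins numbered 4 at promoters and 3 at distal positions. The split by promoter and by H3K4me3 was not computed for the 29442 sites, so these counts have no background.

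The sequences below are 100 bp windows around summits, read from the plus strand of GRCh37 (hg19), and they are shown because they are the sites on which the account of these genes rests. Those of AML1-ETO at LMO2, LYL1, TAL1 and MECOM, and peak 8515 at GATA2, have the lowest peak number of that list at their gene. The N-CoR windows, the AML1 window and the AML1-ETO windows of peaks 1068 and 1897 were picked after their values were seen. Windows that overlap an untranslated region are not shown. Capitals mark short consensus sequences read on either strand. The Runx consensus is TGTGGT and that of PU.1 is GAGGAA. For GATA factors the search was for AGATAA, with TGATAA as the other form. The E-box was searched as CAGCTG, with CAGATG as the other form. Each line gives the gene, the list, the peak number and the hg19 position. By position, LMO2 peak 25, LYL1 peak 147 and both GATA2 windows lie upstream of the gene, LYL1 peak 1372 lies at the start, HHEX peak 1897 lies downstream of the gene, and the others lie in introns.

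LMO2, AML1-ETO peak 25, chr11:33915402-33915501: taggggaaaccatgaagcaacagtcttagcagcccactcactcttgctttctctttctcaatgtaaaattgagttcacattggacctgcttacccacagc
LYL1, AML1-ETO peak 147, chr19:13215241-13215340: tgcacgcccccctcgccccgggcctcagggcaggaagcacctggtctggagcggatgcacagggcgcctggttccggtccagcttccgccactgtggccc
LYL1, N-CoR peak 1372, chr19:13214020-13214119: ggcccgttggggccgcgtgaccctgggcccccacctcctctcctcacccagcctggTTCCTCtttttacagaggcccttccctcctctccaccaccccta
TAL1, AML1-ETO peak 3256, chr1:47697509-47697608: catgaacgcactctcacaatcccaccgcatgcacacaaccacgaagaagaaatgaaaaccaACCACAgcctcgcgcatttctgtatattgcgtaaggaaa
HHEX, N-CoR peak 184, chr10:94450643-94450742: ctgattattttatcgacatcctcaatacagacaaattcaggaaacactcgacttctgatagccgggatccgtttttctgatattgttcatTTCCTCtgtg
HHEX, AML1-ETO peak 1897, chr10:94516969-94517068: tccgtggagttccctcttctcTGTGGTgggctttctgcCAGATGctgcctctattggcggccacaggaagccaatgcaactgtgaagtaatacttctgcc
MYB, N-CoR peak 1708, chr6:135516752-135516851: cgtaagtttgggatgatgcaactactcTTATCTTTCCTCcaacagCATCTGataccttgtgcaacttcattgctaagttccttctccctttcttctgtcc
MEIS1, AML1 peak 9672, chr2:66706058-66706157: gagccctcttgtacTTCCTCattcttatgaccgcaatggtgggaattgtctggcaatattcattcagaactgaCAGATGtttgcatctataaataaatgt
MECOM, AML1-ETO peak 5753, chr3:168945932-168946031: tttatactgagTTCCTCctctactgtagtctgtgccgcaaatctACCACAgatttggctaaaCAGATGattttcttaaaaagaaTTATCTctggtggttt
GATA2, AML1-ETO peak 8515, chr3:128242557-128242656: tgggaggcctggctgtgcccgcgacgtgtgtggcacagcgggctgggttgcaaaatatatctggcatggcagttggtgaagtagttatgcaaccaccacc
GATA2, AML1-ETO peak 1068, chr3:128322652-128322751: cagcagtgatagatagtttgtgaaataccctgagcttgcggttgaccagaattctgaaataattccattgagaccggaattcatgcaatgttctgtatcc

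LYL1 spans 13209847 to 13213975 on chromosome 19 of hg19, on the minus strand. Its window held 4 AML1, 5 AML1-ETO, 5 N-CoR and 5 p300 summits. At least as many p300 summits were found at 0.585% of protein-coding genes, and at least as many N-CoR summits at 1.05%. A site of all 4 proteins stood at -379 bp from the canonical start, where negative values lie upstream, and 76 bp from the nearest annotated start, with an H3K4me3 summit 813 bp away. Another stood at -1662 bp, 290 bp from H3K4me3, and a further one at +3258 bp, in an exon at the far end of the short gene and 2824 bp from H3K4me3. The upstream site held AML1-ETO peak 147 of 18087, N-CoR peak 239 of 10004 and p300 peak 136 of 11020. There the AML1-ETO, N-CoR and p300 summits lay within 15 bp of each other, whereas the AML1 summit was 99 bp from that of AML1-ETO, at the edge of what counts as overlap, and 112 bp from that of p300. An AML1 summit stood alone in an intron at +2634 bp. The remaining summits lay at the end of the neighbouring gene NFIX, which runs into the window on the downstream side, or in TRMT1 on the upstream side, so they cannot be assigned to LYL1 by position. In the 50 kb view LYL1 gained sites at the starts of NACC1, STX10 and IER2, which also belong to neighbouring genes by position.

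LMO2 spans 33880122 to 33913623 on chromosome 11, on the minus strand, and no other protein-coding gene lies within 50 kb. It carried 3 AML1, 5 AML1-ETO, 4 N-CoR and 2 p300 summits. All 4 proteins met at the canonical start, with summits within 56 bp of each other, and again 1801 bp upstream. This upstream site held AML1-ETO peak 25 and N-CoR peak 13, among the first 1% of either list, with AML1 peak 398 of 11692 and p300 peak 1170. It lay 2346 bp from the nearest H3K4me3 summit, and its AML1-ETO window, printed above, holds none of the 4 consensus groups. Between these sites, AML1-ETO and N-CoR summits stood 107 bp apart, just too far to be counted as overlapping, 1008 and 1115 bp upstream of the start. Inside the gene, AML1-ETO and AML1 summits stood 140 bp apart in an intron, 6582 and 6442 bp from the start, and AML1-ETO alone stood 42 bp from an internal LMO2 start that also carried H3K4me3. An N-CoR summit stood 551 bp from it. Further upstream, at -20426 and -38437 bp, AML1-ETO, N-CoR and p300 formed a site without AML1 at each position. The nearest H3K4me3 summits were 20971 and 38982 bp away.

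TAL1 spans 47681962 to 47697897 on chromosome 1, on the minus strand, and carried a single summit of each of the 4 proteins. They formed 1 site 331 bp downstream of the canonical start, in an intron, with their summits within 73 bp and an H3K4me3 summit 334 bp away. The N-CoR and p300 summits differed by 3 bp, and those of AML1 and AML1-ETO by 29 bp. The AML1-ETO window holds the Runx consensus on the minus strand. A single AML1-ETO summit or more is found at 41.3% of all genes, and a site of all 4 proteins at 8.54%. A further AML1-ETO summit within 50 kb, 52991 bp downstream of the start, lay 16 bp from the start of the non-coding gene LINC00853.

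GATA2, which spans 128198270 to 128212044 on chromosome 3, had no summit of the 4 proteins within 5 kb. It had 2 H3K4me3 summits, 1 of them 543 bp from an annotated start and the other 4451 bp upstream of the canonical one. The nearest AML1-ETO summit was 30.6 kb upstream, without any of the other 3 proteins. Beyond 50 kb, AML1, AML1-ETO and N-CoR formed a site 110.7 kb upstream, from 128322652 to 128322775, outside any gene and 4472 bp from an H3K4me3 summit. A site of AML1 and p300 followed at -124.6 kb. The nearest protein-coding start to both was that of RPN1, at 23395 and 9493 bp. A distant enhancer upstream of GATA2, on the RPN1 side, is known to be moved next to MECOM by inversions of chromosome 3 in leukemia. The window of AML1-ETO peak 1068 at the 110.7 kb site holds no TGTGGT and 1 copy of the related TGCGGT.

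**Figure D2:**
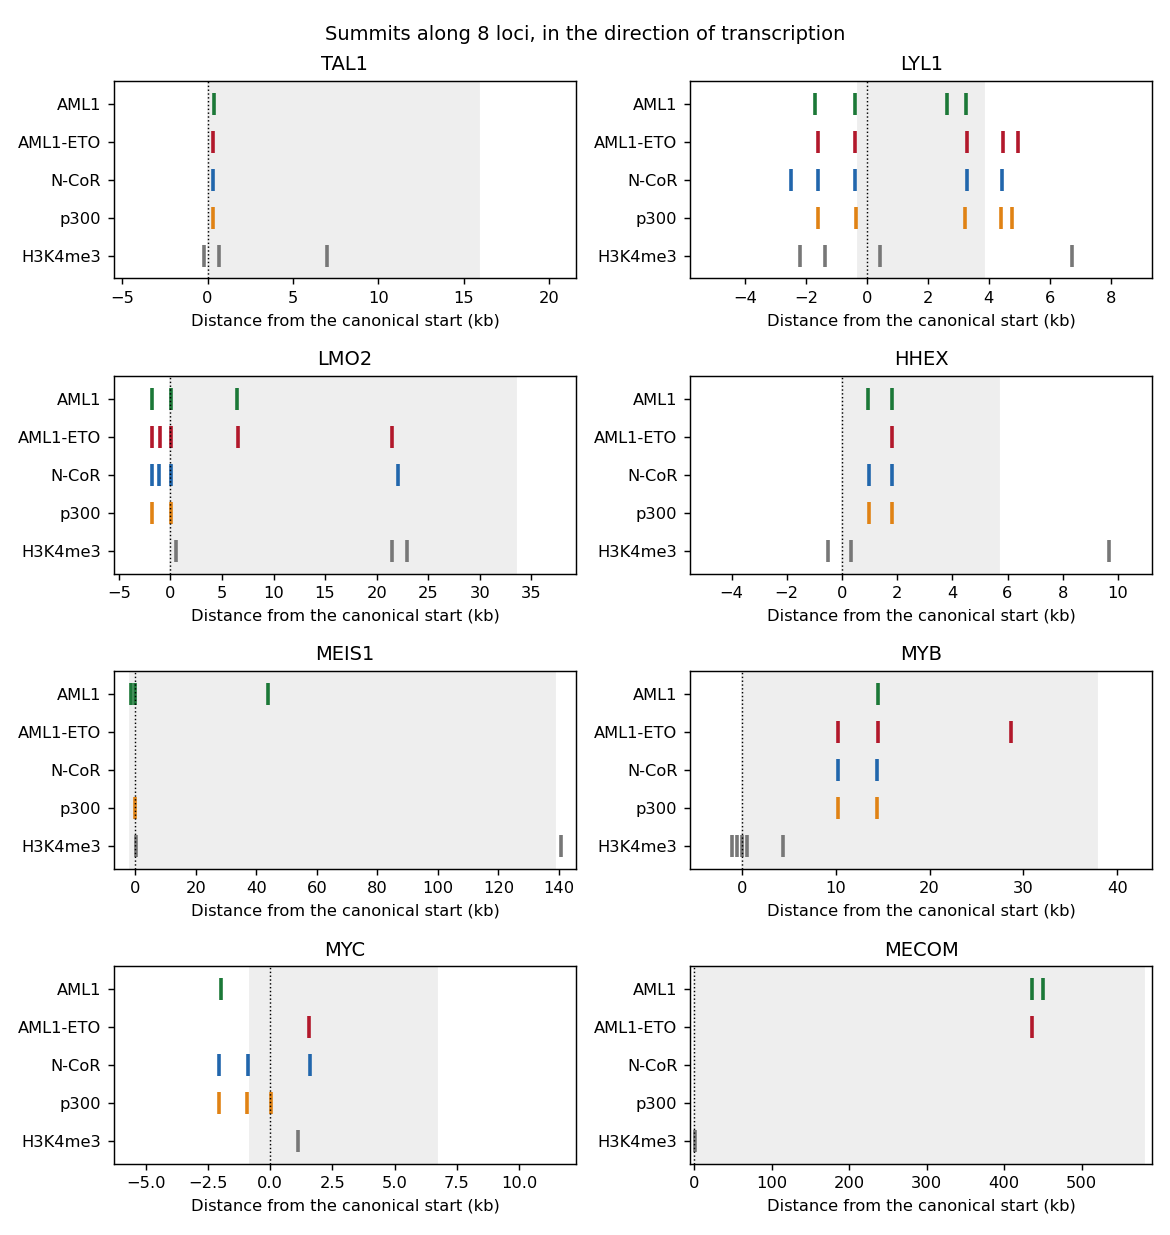
Position of every summit (coloured ticks, 1 row per antibody) within 5 kb of 8 genes, as distance in kb from the canonical start (dotted line) in the direction of transcription; the grey band is the gene body. Ticks of all 4 proteins line up at TAL1, LYL1, LMO2 and HHEX, MEIS1 has AML1 and p300 ticks but none of AML1-ETO or N-CoR, and the MECOM ticks of AML1 and AML1-ETO lie 435518 bp or more from its start.

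HHEX spans 94449712 to 94455404 on chromosome 10 and carried 2 AML1, 1 AML1-ETO, 2 N-CoR and 2 p300 summits. These formed 2 sites downstream of the start. At the first, 969 bp from the canonical start, AML1, N-CoR and p300 met without AML1-ETO, and the nearest AML1-ETO summit was 840 bp from the N-CoR summit. At the second, 1822 bp from the start in an exon, all 4 proteins lay within 15 bp. The second site held AML1-ETO peak 127, N-CoR peak 38 and p300 peak 94, each among the first 1% of its list, and AML1 peak 714. Its nearest H3K4me3 summit was 1483 bp away. It counts as a promoter site only because an HHEX transcript is annotated to begin 43 bp from it. No other summit of the 4 proteins lay within 50 kb, but a further site of all 4 proteins stood 67.3 kb downstream of the start, outside genes, and its AML1-ETO window holds TGTGGT and CAGATG. The nearest protein-coding start to it was that of HHEX.

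MEIS1 spans 66660584 to 66801001 on chromosome 2 and carried 3 AML1 summits, 1 p300 summit and no AML1-ETO or N-CoR summit. One AML1 summit lay 6 bp from the canonical start and overlapped p300, with H3K4me3 155 bp away. The others lay at -1530 and +43851 bp, in introns. The summit at -1530 bp counts as a promoter site, 125 bp from a start of MEIS1-AS3 and 143 bp from another annotated MEIS1 start. The nearest AML1-ETO summit was 494 kb from the start, where AML1, AML1-ETO and N-CoR formed a site. Having 3 or more AML1 summits and no AML1-ETO summit within 5 kb was rare, at 8 of 20163 protein-coding genes or 0.0397%, although this combination was looked for after the values of MEIS1 were seen. The 3 AML1 peaks are numbers 8063, 10642 and 9672 of 11692, so they stand 69.0, 91.0 and 82.7% down the list.

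MYB spans 135502446 to 135540311 on chromosome 6 and carried 1 AML1, 3 AML1-ETO, 2 N-CoR and 2 p300 summits, none of them near the canonical start. The start itself was covered by H3K4me3, with 5 summits between 1004 bp upstream and 4340 bp downstream. The first factor site, 10259 bp into the gene, held AML1-ETO, N-CoR and p300 but not AML1. Farther on, N-CoR and p300 summits lay 3 bp apart, and those of AML1 and AML1-ETO lay 6 bp apart, but the pairs were 103 to 112 bp from each other. They were therefore counted as 2 sites, 14357 and 14465 bp from the canonical start, and as promoter sites only because other MYB transcripts are annotated to begin 83 and 25 bp from them. No H3K4me3 summit lay within 5 kb of any of these sites. The AML1-ETO window of the second pair, which lies over an untranslated region and is not printed, holds the Runx consensus in 2 places, and the N-CoR window of the first pair holds the PU.1, GATA and E-box sequences shown above. Another AML1-ETO summit stood alone 28663 bp from the start. The only further site in the 50 kb view was an N-CoR summit 52735 bp from the start.

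MYC spans 128747680 to 128755197 on chromosome 8 and carried 1 AML1, 1 AML1-ETO, 3 N-CoR and 3 p300 summits. At least as many N-CoR summits were found at 3.88% of protein-coding genes, and at least as many p300 summits at 4.35%. A p300 summit stood alone 9 bp from the canonical start and was number 250 of its list. N-CoR and p300 met at -930 bp, and AML1, N-CoR and p300 at -2027 bp, both within the non-coding gene CASC11. The only AML1-ETO summit lay 1560 bp downstream, in an exon, and overlapped N-CoR but not p300. The H3K4me3 summit stood 1115 bp downstream of the start.

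Most sites whose nearest protein-coding start is that of MYC lay far from it. Beyond 50 kb of the gene there were 24 such sites, from -50.8 to +998 kb of the start, and 16 of them lay in PVT1, a long non-coding RNA gene downstream of MYC. AML1-ETO was part of 19, N-CoR of 14 and p300 of 8, and an H3K4me3 summit lay within 1000 bp of 3. All 4 proteins met at 4 of these sites, 181, 196, 314 and 515 kb downstream of the MYC start. The site at 181 kb held AML1 peak 160, AML1-ETO peak 206 and N-CoR peak 95. Counting both near and distant positions, 20 AML1-ETO summits had MYC as the nearest protein-coding start, and 11 genes, MYC included, had at least as many. The stretch of chromosome nearest to the MYC start is 1170 kb long, which makes 17.1 summits per Mb, against a mean of 5.84 per Mb over the genome. Shorter stretches around 5 of the other genes were denser, with 249.5 summits per Mb for LYL1, 46.0 for LMO2, 28.3 for MYB, 25.4 for HHEX and 20.3 for TAL1, the last from a single summit. The LYL1 value comes from 5 summits, some of which lie at the end of NFIX and cannot be assigned to LYL1 by position. MEIS1 and MECOM have stretches of similar length, 1020 and 1107 kb, and 1 AML1-ETO summit each. Distance alone does not tell which gene a site acts on, and changes in copy number in this cell line were not analysed here.

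**Figure D3:**
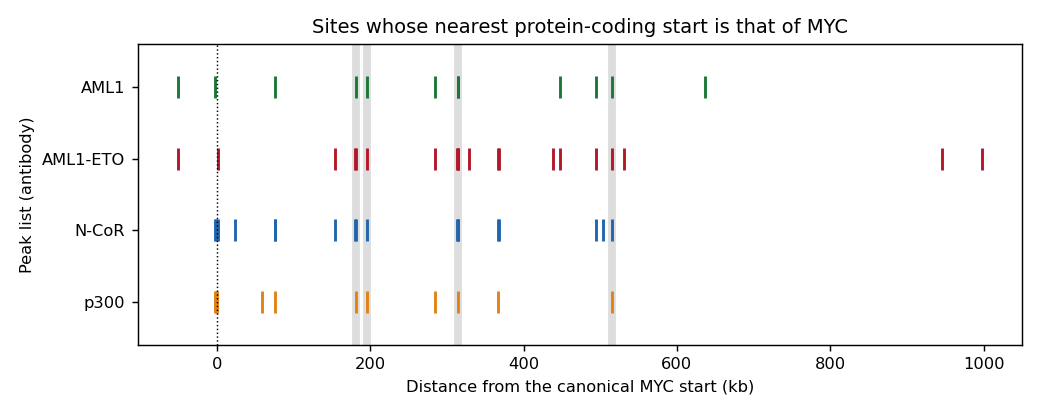
Summits of the 4 proteins (ticks, 1 row per antibody) around MYC, as distance in kb from its canonical start (dotted line); the sites lie within 50 kb of the gene or have MYC as the nearest protein-coding start. Grey bands mark the 4 distant sites with all 4 proteins, between 181 and 515 kb downstream.

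HLF, which spans 53342321 to 53402548 on chromosome 17, had an H3K4me3 summit 258 bp from its canonical start and no summit of the 4 proteins within 5 kb. In the 50 kb view it had 1 site, of AML1 and p300, 26.6 kb upstream and 368 bp from an H3K4me3 summit. The nearest AML1-ETO summit was 296 kb and the nearest N-CoR summit 519 kb from the start.

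MECOM, which encodes EVI1 and longer forms of it, spans 168801287 to 169381563 on chromosome 3. It carried 2 AML1 summits and 1 AML1-ETO summit in 580 kb, and no N-CoR or p300 summit. AML1 and AML1-ETO met at 1 intronic site 435531 bp from the canonical start and 41057 bp from the nearest annotated start. The AML1-ETO window there holds the Runx, PU.1, GATA and E-box sequences within 100 bp. The only H3K4me3 summit lay 1276 bp from the canonical start, and none of the 14 annotated starts had one within 1000 bp, whereas the other 9 genes each had such a summit. By this measure 62.3% of all protein-coding genes had one.

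Across the 10 loci, 9 of the 17 AML1-ETO summits overlapped both N-CoR and p300, 52.9% (27.8 to 77.0%, exact Clopper-Pearson 95% interval), against 15.7% of all AML1-ETO summits. N-CoR overlapped 10 of them, 58.8% (32.9 to 81.6%), against 38.9% of all. p300 overlapped 9 of them, 52.9% (27.8 to 77.0%), against 21.8% of all. Each of these 9 also overlapped N-CoR, so they are the same summits as those with both. In the whole list, 2842 of the 3946 AML1-ETO summits that overlapped p300 also overlapped N-CoR. AML1 overlapped 9 of the 17, 52.9% (27.8 to 77.0%), against 46.2%, and 7 lay at a promoter, 41.2% (18.4 to 67.1%), against 34.5%. The intervals for N-CoR, AML1 and promoters include the shares of the whole list, and those for p300 and for N-CoR with p300 do not. The last statement rests on LYL1. Without it, 5 of 12 AML1-ETO summits overlapped p300, all 5 with N-CoR as well, 41.7% (15.2 to 72.3%). This interval includes the 21.8% and the 15.7% of the whole list. Seen from the other lists, 10 of 17 N-CoR summits overlapped AML1-ETO, 58.8% (32.9 to 81.6%), against 70.3% of all N-CoR summits. For AML1 it was 9 of 17, 52.9% (27.8 to 77.0%), against 71.5%, and for p300 9 of 16, 56.2% (29.9 to 80.2%), against 35.8%. These intervals cover counting error only, and the summits are not independent, because 10 of the 17 AML1-ETO summits lie at LYL1 and LMO2.

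**Figure D4:**
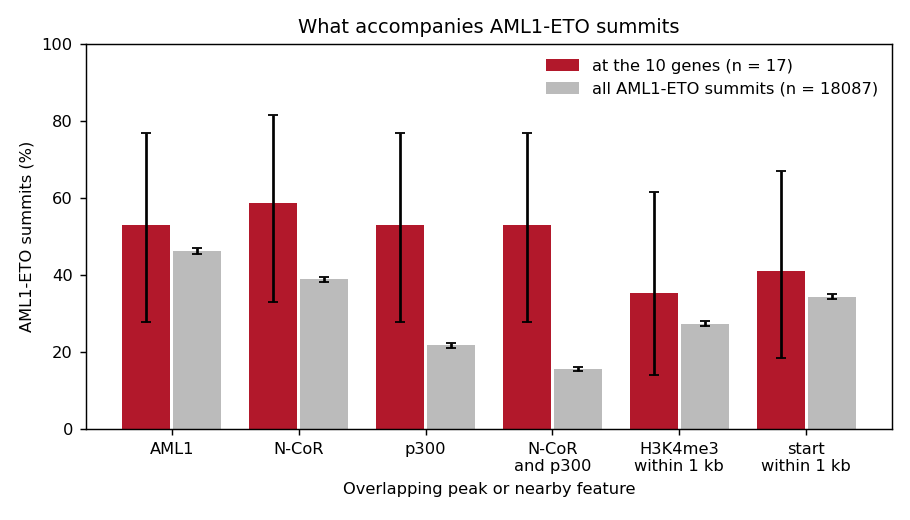
Share of AML1-ETO summits (%) that overlap AML1, N-CoR, p300 or both co-regulators, or that have an H3K4me3 summit or an annotated start within 1 kb, at the 10 genes (red, n = 17) and in the whole list (grey, n = 18087); error bars are exact 95% intervals. The share with p300 is 52.9% at the 10 genes and 21.8% in the whole list. With N-CoR and p300 together it is 52.9% and 15.7%.

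Taking the N-CoR list first, 13 of its 17 summits at these genes overlapped p300, 76.5% (50.1 to 93.2%), against 37.4% of all N-CoR summits. Of the 16 p300 summits, 13 overlapped N-CoR, 81.2% (54.4 to 96.0%), against 33.9% of all. An H3K4me3 summit lay within 1000 bp of 6 of the 16 p300 summits, 37.5% (15.2 to 64.6%), whereas it did so for 71.7% of the whole p300 list. Without LYL1, 9 of 12 N-CoR summits overlapped p300, 75.0% (42.8 to 94.5%). N-CoR and p300 shared a site at 6 of the 10 genes, against 14.3% of all protein-coding genes, and these were the same 6 that carried N-CoR at all. Both libraries had the milder wash, also in the whole lists, and its part in their overlap was not tested.

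The lists number their peaks in an order that is not genomic and whose meaning is not given in the sources used here. By that number, 3 of the 17 AML1-ETO summits at these genes were among the first 1% of their list, at LMO2, HHEX and LYL1. So were 2 of the 17 N-CoR summits, at LMO2 and HHEX, and 1 of the 16 p300 summits, at HHEX. The AML1 list had none in its first 1%, and its median place was 54.0% down the list, compared with 31.8% for AML1-ETO, 33.9% for N-CoR and 25.7% for p300. The H3K4me3 summits had a median place of 69.8%, and 18 of 25 lay beyond the middle of the list.

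**Figure D5:**
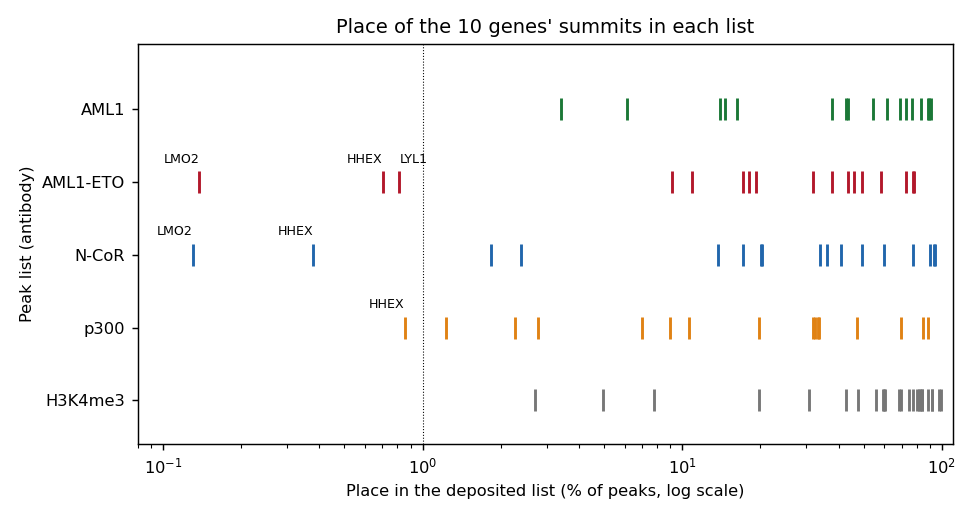
Place of each summit within 5 kb of the 10 genes in its deposited list, as a percent of the list on a log scale (ticks, 1 row per antibody); gene names mark summits in the first 1%, left of the dotted line. The LMO2 summits of AML1-ETO and N-CoR, at 0.138% and 0.130%, are the earliest.

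The consensus sequences were counted in the windows of these summits, as letters on either strand. TGTGGT was present in 4 of 17 AML1-ETO windows, 23.5% (6.81 to 49.9%), against 31.3% of all AML1-ETO windows, and in 4 of 17 AML1 windows, against 40.6% of all. These 4 AML1-ETO windows were at TAL1, MYB (2) and MECOM, and the windows of the top-numbered peaks at LMO2, HHEX and LYL1 held none. GAGGAA was present in 4 of 17 AML1-ETO windows, against 26.0% of all, and in 4 of 17 N-CoR windows, against 30.8%. It was also in 5 of 17 AML1 windows, against 25.6%, and in 4 of 16 p300 windows, against 17.7%. The GATA sequences were found in 2 of 17 AML1-ETO and 2 of 16 p300 windows, against 5.64% and 2.62% of all. They were in 0 of 17 AML1 and 1 of 17 N-CoR windows, against 6.04% and 5.78%. The E-box sequences were in 1 of 17 AML1-ETO windows, against 22.4% of all, and in 3 of 17 AML1 windows, against 15.9%. For N-CoR they were in 2 of 17 windows, against 18.9%, and for p300 in 1 of 16, against 13.3%. A match is a description of the sequence and not evidence of binding.

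A list of 35 other genes of the stem cell network was counted in the same way. AML1-ETO was found at 18 of them, 51.4% against 41.3% of all protein-coding genes, and AML1 at 16, 45.7% against 34.9%. N-CoR was found at 16, 45.7% against 26.7%, p300 at 23, 65.7% against 45.5%, and H3K4me3 at 29, 82.9% against 68.0%. Their median length of 47.7 kb is above the 27.2 kb of all genes, and its part in these shares was not tested. At 14 of the 35 genes an AML1-ETO summit overlapped N-CoR, against 19.1% of all protein-coding genes, whose median length is lower. Among the 14, RUNX1, which encodes AML1, carried 26 AML1-ETO summits over 1217 kb, 14 of them with N-CoR and 7 with p300. GFI1, a repressor that restrains stem cell proliferation, carried 4 AML1-ETO summits in a gene of 13.9 kb, and all 4 overlapped N-CoR and 3 overlapped p300. FLI1, an ETS factor of blood and endothelial progenitors, carried 9 AML1-ETO summits, 7 of them with N-CoR and 2 with p300. CBFA2T3, an ETO relative that joins TAL1 complexes, carried 8, of which 5 overlapped N-CoR and 4 p300. Among the partners of TAL1, LMO2 and LYL1, the E protein gene TCF12 had 4 AML1-ETO summits, 3 overlapping N-CoR and 3 p300. LDB1 had 2, of which 1 overlapped N-CoR and 1 p300, and TCF3 had 2 that overlapped neither. No summit of the 4 proteins was found at 10 of the 35 genes, against 38.5% of all protein-coding genes. The 10 include GATA1, the erythroid GATA factor, ZFPM1, its cofactor, and TAL2. Among genes of MEIS1 partners, PBX3 carried no summit of the 4 proteins, and HOXA9 had only p300 summits among them.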

How the data were processed

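The 5 libraries used were ChIP-seq for H3K4me3, p300, N-CoR, AML1-ETO and AML1. The authors aligned reads to GRCh37 (hg19) with Bowtie 0.12.8, pooled replicates, and ran MACS 2.0.10.20131216 at a peak threshold of p = 1e-20. The deposited lists give a chromosome, a start, an end and a numbered name, with every interval 100 bp wide, and no score. Names in the N-CoR list carry an eto prefix and those in the p300 and H3K4me3 lists an aml1 prefix, so lists were identified by sample. Only 0.920% of N-CoR summits stand on the same base as an AML1-ETO summit.

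The summit was taken as the start plus 50 bp. Genes and transcripts came from GENCODE release 44 lifted to GRCh37, and coordinates are counted from 1. Members and lists were chosen with earlier results of these data known. All 10 genes were named. By rule the AML1-ETO window of lowest peak number was printed for 5 genes (those of HHEX, MYB and MYC are not shown), and the other windows printed, 2 of AML1-ETO among them, were picked after their values were seen, as were the network genes named. Counting was checked on simulated data. Intervals were computed with SciPy 1.17.1 in Python 3.11.15, sequences were read with pysam 0.24.0, and plots were drawn with matplotlib 3.10.9. Alternatives were other gene windows, overlap widths, start sets, motif windows and the first 5000 peaks of each list. Shares of whole lists leave out the few peaks off the nuclear chromosomes, which leaves 11686 AML1 and 10003 N-CoR summits. Libraries of input DNA and of H3K27me3 were not used. The result of 1 further list of cell type markers is not reported here.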

Additional observations from a re-analysis of the deposited data

How the results depend on the processing

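Of 255 recomputed values, 240 stayed within 1.5 times the count reported or within its 95% interval. All 160 values recomputed with 1 gene left out stayed so, and the 15 that moved came from the other alternatives. Leaving out 1 gene could hardly move a value past these wide limits, so the 160 values do not show robustness. For example, AML1-ETO summits ranged from 12 to 17, and leaving out GATA2 or HLF changed no factor count. The share of AML1-ETO summits with both N-CoR and p300 was not among these values. Without LYL1 its interval, 15.2 to 72.3%, included the 15.7% of the whole list. Without the 5 kb flanks there were 11 AML1-ETO summits, 9 of N-CoR, 9 of p300 and 15 of H3K4me3. Assigning sites to the nearest protein-coding start gave 31 AML1 summits, 42 of AML1-ETO, 39 of N-CoR and 28 of p300, with 20 of the AML1-ETO summits at MYC. A stricter threshold could not be applied without scores, and the meaning of the peak order is not given. When every list was limited to its first 5000 peaks, there were 7 AML1, 8 AML1-ETO and 4 H3K4me3 summits, AML1 at 5 genes and H3K4me3 at 4 genes. Of those 8 AML1-ETO summits 87.5% overlapped N-CoR and 12.5% were near H3K4me3. The cut takes the H3K4me3 list down from 19632 peaks and the N-CoR list from 10004. Shares over all AML1-ETO summits were not computed for the cut lists, so these 2 values have no background. Leaving out 1 gene at a time gave 50.0 to 66.7% of AML1-ETO summits with N-CoR, and from 41.7 to 58.3% with p300. With overlap counted in windows of 25 or 250 bp to either side, the N-CoR share was 52.9 or 70.6% and the p300 share 35.3 or 64.7%. With canonical starts only, an alternative chosen after seeing the data, 23.5% of AML1-ETO summits lay at a promoter. No paired analysis was possible because each antibody has a single pooled list. The positions carry no heights, so weak and strong peaks count alike.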
